A study of Mus musculus with 4 samples.

Results

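DNA methylation was examined across 6 mouse gene clusters that encode enzymes of hepatic drug, steroid and fatty acid metabolism: the cytochrome P450 clusters Cyp2a/b/f/g, Cyp2c, Cyp2d, Cyp3a and Cyp4a, and the UDP-glucuronosyltransferase cluster Ugt1a. Members were all array probes, other than control spots, that start within fixed windows of the mm9 genome. The windows were chr7 26.5 to 27.9 Mb for Cyp2a/b/f/g, chr19 39.1 to 40.3 Mb for Cyp2c, chr15 82.18 to 82.42 Mb for Cyp2d, chr5 146.1 to 147.1 Mb for Cyp3a, chr4 114.8 to 115.35 Mb for Cyp4a and chr1 89.93 to 90.13 Mb for Ugt1a. They held 749 of the 415814 probes on the array, 275, 88, 83, 95, 115 and 93 in that order, which formed 103 of 56653 measured regions.

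The material was liver of C57BL/6J fetuses collected on gestation day 18. In the food restricted group the pregnant dams had been given 50% of the chow that control dams ate, from day 10 to day 17 of gestation. Control dams ate freely. Liver DNA was pooled within each group, and the labels give N = 6 for a pool without saying whether that counts fetuses or litters. A group therefore had 1 pool and no biological replicate, and no test was possible. Methylated DNA was immunoprecipitated from each pool and hybridised against the total DNA of the same pool on 2-colour tiling arrays. Each pool was hybridised on both slides, with the dyes exchanged between slides, and these arrays are technical repeats of 1 preparation of each pool. The liver identity of the pools could not be checked here, because no marker level can be read from DNA enrichment.

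Cytochrome P450 enzymes oxidise lipophilic molecules in the endoplasmic reticulum, and UGT1A enzymes then attach glucuronic acid so that the products can be excreted. The cytochrome P450 genes of these clusters lie in tandem arrays of duplicated genes. Many members of these clusters are weakly expressed in the fetal liver and rise around and after birth under nuclear receptors such as PXR, CAR and PPARα. Cyp3a11 is a classical PXR target, Cyp2b10 a CAR target, and the Cyp4a enzymes are PPARα-induced fatty acid hydroxylases. Cyp2c29 belongs to a family that epoxidises arachidonic acid, and Ugt1a1 conjugates bilirubin.

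Promoters of the clusters are shown because the yield of methylated-DNA precipitation depends on how many CpG sites a fragment holds. By symbol, 87 genes of the subfamilies in these clusters, with the neighbouring Cyp2s, Cyp2t, Cyp4b and Cyp4x genes, were found in RefSeq annotation of GRCm38.p6, 62 of them protein coding, and 51 had a promoter sequence from 250 bases before to 50 bases after the start, with 53 promoter entries in all. The first symbol with a promoter in each cluster is printed from the RefSeq GRCm38.p6 table, 5′ to 3′ on the strand of the gene, with each CpG in capitals.
Ugt1a1: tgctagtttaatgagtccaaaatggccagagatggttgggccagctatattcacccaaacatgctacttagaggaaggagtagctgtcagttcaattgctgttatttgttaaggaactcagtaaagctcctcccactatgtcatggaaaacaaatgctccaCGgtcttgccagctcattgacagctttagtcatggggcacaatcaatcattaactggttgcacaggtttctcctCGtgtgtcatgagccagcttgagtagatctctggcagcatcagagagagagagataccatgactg
Cyp2d10: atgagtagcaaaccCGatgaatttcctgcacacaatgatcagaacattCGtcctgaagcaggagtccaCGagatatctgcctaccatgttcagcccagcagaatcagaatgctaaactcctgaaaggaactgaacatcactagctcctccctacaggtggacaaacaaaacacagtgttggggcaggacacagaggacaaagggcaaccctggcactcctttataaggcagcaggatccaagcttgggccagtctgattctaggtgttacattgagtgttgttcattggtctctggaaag
Cyp2a12: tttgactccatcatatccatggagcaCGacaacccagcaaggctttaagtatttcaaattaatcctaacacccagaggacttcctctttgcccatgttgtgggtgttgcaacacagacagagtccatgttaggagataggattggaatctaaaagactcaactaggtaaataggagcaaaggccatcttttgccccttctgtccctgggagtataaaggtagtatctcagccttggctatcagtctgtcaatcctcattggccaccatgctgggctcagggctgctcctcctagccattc
Cyp4a29: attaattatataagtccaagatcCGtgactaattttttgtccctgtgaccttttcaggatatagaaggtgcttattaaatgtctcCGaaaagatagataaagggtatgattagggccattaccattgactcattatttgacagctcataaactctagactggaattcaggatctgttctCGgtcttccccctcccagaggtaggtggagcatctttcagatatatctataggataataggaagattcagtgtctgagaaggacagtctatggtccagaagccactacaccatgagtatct
Cyp2c29: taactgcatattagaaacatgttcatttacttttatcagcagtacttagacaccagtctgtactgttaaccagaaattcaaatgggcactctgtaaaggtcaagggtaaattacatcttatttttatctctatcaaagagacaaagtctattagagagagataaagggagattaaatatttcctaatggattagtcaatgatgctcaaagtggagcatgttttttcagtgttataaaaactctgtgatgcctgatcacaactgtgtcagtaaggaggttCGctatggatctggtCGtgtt
Cyp3a11: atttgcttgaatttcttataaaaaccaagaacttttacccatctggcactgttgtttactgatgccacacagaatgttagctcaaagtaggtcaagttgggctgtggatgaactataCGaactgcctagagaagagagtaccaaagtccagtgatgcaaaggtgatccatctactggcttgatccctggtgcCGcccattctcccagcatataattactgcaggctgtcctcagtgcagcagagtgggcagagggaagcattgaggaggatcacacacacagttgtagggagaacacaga
These 6 promoters held 1 to 3 CpGs in 300 bases, the fewest in Cyp2a12 and the most in Cyp2d10 and Cyp4a29. Over the 53 promoters of the clusters the median was 2 CpGs, with a range of 0 to 17, whereas the median of all 32851 promoters of the table was 7. Promoters with at most 4 CpGs made up 50 of 53 in the clusters, or 94.3%, against 38.0% of all promoters. The exceptions were Cyp2s1 with 17, the antisense gene Cyp4x1os with 12 and Cyp4b1 with 5. The GC content was lowest in the Cyp2c promoters, at a median of 35.7%, compared with 45.3% over all 6 clusters and 52.7% over all promoters. The letters TATAAA, the core of the TATA box, were found on either strand in 25 of 53 cluster promoters (47.2%) and in 13.6% of all promoters. They were present in all 5 Cyp2d promoters and in none of the 8 Ugt1a promoters. GTTAAT, the first arm of the HNF1 site, was found in 12 cluster promoters (22.6%), 4 of them in Ugt1a, against 7.10% of all. AGGTCA, the nuclear receptor half-site, was found in 21 (39.6%) against 16.3% of all. No motif contains another, and a match describes the sequence only. No annotation of mm9 was used here, so measured regions are given by position and not by gene or promoter. The genes of these promoters were matched by chromosome and symbol, not by position within the windows.

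Enrichment was expressed as M, the log2 ratio of immunoprecipitated over total DNA signal at a probe, centred on the median of its array. M is a relative measure that rises with both methylation and CpG density and is not a percentage of methylated cytosines. Neighbouring probes were joined into regions of at least 3 probes and up to 2000 bp, and a region took the median M of its probes. The 6 clusters held 103 such regions with 645 of the 749 probes, out of 56653 regions on the array. Coverage was sparse and uneven, from 7.33 probes per 100 kb in Cyp2c to 46.5 in Ugt1a, and the regions covered 1.01% of the Cyp2c window and 7.08% of the Ugt1a window. Over the cluster regions, M correlated between arrays of 1 pool at r = 0.96 for either pool and between pools on 1 slide at r = 0.94, which describes regions that share libraries and is not a test.

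The clusters differed in their level of enrichment. Ugt1a had the highest median M and Cyp2d the second highest on each of the 4 arrays, Cyp2a/b/f/g came next, and Cyp2c, Cyp3a and Cyp4a were lowest and changed places between arrays. In Ugt1a the median M of the 12 regions was 0.35 and 0.19 on the control arrays and 0.26 and 0.11 on the food restricted arrays, slide 1 before slide 2. In Cyp2d the corresponding medians over 11 regions were 0.10 and -0.07 for control and 0.23 and -0.13 for food restricted DNA. The medians of these 2 clusters lay near the median of all regions on the array, which was between -0.09 and -0.08 on every array. No single Ugt1a region lay near its cluster median, which fell in a gap between regions with a mean M of -0.70 and 1.03. In Cyp2a/b/f/g, the 37 regions had medians of -0.70 and -0.79 in the control pool and -0.50 and -0.44 in the food restricted pool. Cyp4a, with 16 regions, had medians of -1.10 and -0.84 in control and -0.88 and -0.87 in food restricted DNA. The 14 Cyp2c regions had medians of -0.995 on both arrays in control and -0.83 and -1.08 in food restricted DNA. Cyp3a, with 13 regions, had medians of -1.35 and -1.04 in control and -1.02 and -0.78 in food restricted DNA. The values of the pools overlapped in Ugt1a, Cyp2d, Cyp4a and Cyp2c. In Cyp2a/b/f/g and Cyp3a both food restricted medians were above both control medians, although in Cyp3a the nearest values lay closer together than the arrays of either pool. In Cyp2a/b/f/g the same regions compared within a slide showed no such shift: 18 and 20 of 37 were higher in the food restricted pool on slides 1 and 2, with median differences of -0.0003 and 0.04.

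**Figure D1:**
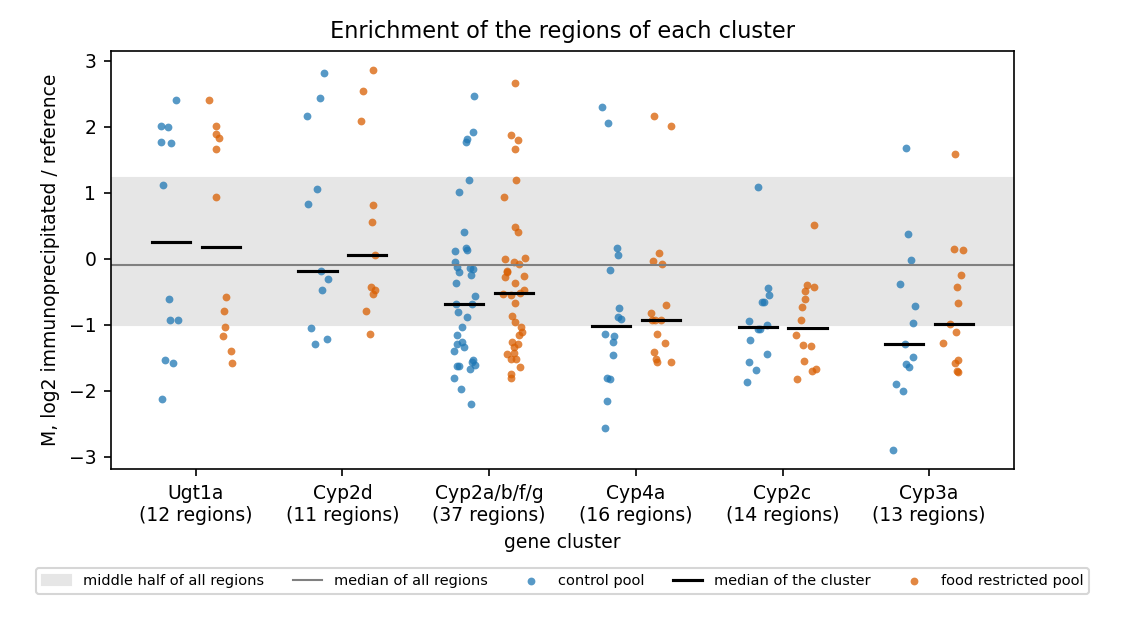
Mean M over the 2 arrays of a pool (log2 scale) for each region, by gene cluster, with the control pool in blue and the food restricted pool in orange; black bars are cluster medians, and the grey line and band are the median and the middle 50% of all 56653 regions. Cyp4a, Cyp2c and Cyp3a sit mostly below the grey line, and Ugt1a and Cyp2d have regions both well above and well below it.

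Regions of strong depletion were common in the clusters and strongly enriched regions were fewer. A mean M over the 4 arrays below -1 was found in 40 of 103 regions, or 38.8%, against 24.9% of all regions, and a mean M above 1 in 18, or 17.5%, against 28.6% of all. The enriched regions were 6 of 12 in Ugt1a, 3 of 11 in Cyp2d and 6 of 37 in Cyp2a/b/f/g, but 2 of 16 in Cyp4a, 1 of 13 in Cyp3a and 0 of 14 in Cyp2c. Placed among all regions, the cluster medians fell at percentile 55.8 for Ugt1a, 50.8 for Cyp2d, 41.4 for Cyp2a/b/f/g, 24.9 for Cyp4a, 24.8 for Cyp2c and 17.1 for Cyp3a. The Ugt1a median again describes no single region of that cluster.

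Signal strength moved with these levels. A region was called dim in a pool where fewer than 50% of its probes were flagged by the scanner software as well above background in the immunoprecipitated channel on both arrays. Dim regions in the control pool made up 34.0% of the cluster regions and 17.98% of all regions, and they were 11 of 14 in Cyp2c and 0 of 11 in Cyp2d. In Cyp2c, 19.3% of probes were well above background in the precipitated channel on either control array, and 34.1% and 29.5% on the food restricted arrays. The reference channel was also weaker there, with a centred median of -1.21 on the log2 scale against 0.01 over all regions. When background was modelled with normexp and an offset of 50 was added, in place of subtraction, the Cyp2c median rose from 0.89 below the median of all regions (a difference of -0.89) to 0.04 above it, and the low values of Cyp2a/b/f/g, Cyp3a and Cyp4a shrank to differences of -0.22, -0.21 and -0.32. With a loess fit within arrays the differences of Ugt1a and Cyp2d turned from 0.31 and 0.12 to -0.09 in both clusters.

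Equally long flanks on either side gave a local comparison. In Cyp3a the cluster median of -1.22 (mean M over the 4 arrays) stood against 0.72 over 48 regions before the window and 0.77 over 39 regions after it. Cyp2a/b/f/g had a median of -0.45 between flanks of 0.68 (133 regions) and 0.63 (147 regions), and Cyp2c a median of -1.003 between flanks of 0.05 (38 regions) and 0.79 (47 regions). These 3 clusters were lower than both of their flanks. Cyp4a was not set apart, with -1.001 between -1.07 (21 regions) and -0.81 (47 regions). Cyp2d, at -0.07, lay between flanks of 0.64 and -0.63, and Ugt1a, at 0.16, between -1.69 and 1.27, but the Ugt1a flanks held only 3 and 5 regions. The difference from the flanks was below 0 for Cyp2a/b/f/g and Cyp3a in each of 13 processing alternatives, single slides included, and for Cyp2c in each of the 12 that gave a value. These counts include the changes of centring, which shift a whole array and cannot alter a difference within it. They also include the deposited value table, which repeats the same ratios. Its size ranged from -1.73 to -0.29 for Cyp2a/b/f/g, from -2.91 to -0.10 for Cyp2c and from -2.38 to -0.43 for Cyp3a, and the value nearest to 0 came from the normexp background in each. Dim regions were also more frequent inside these clusters: in the control pool they were 6 of 13 in Cyp3a, against 1 of 48 and 3 of 39 in its flanks.

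**Figure D2:**
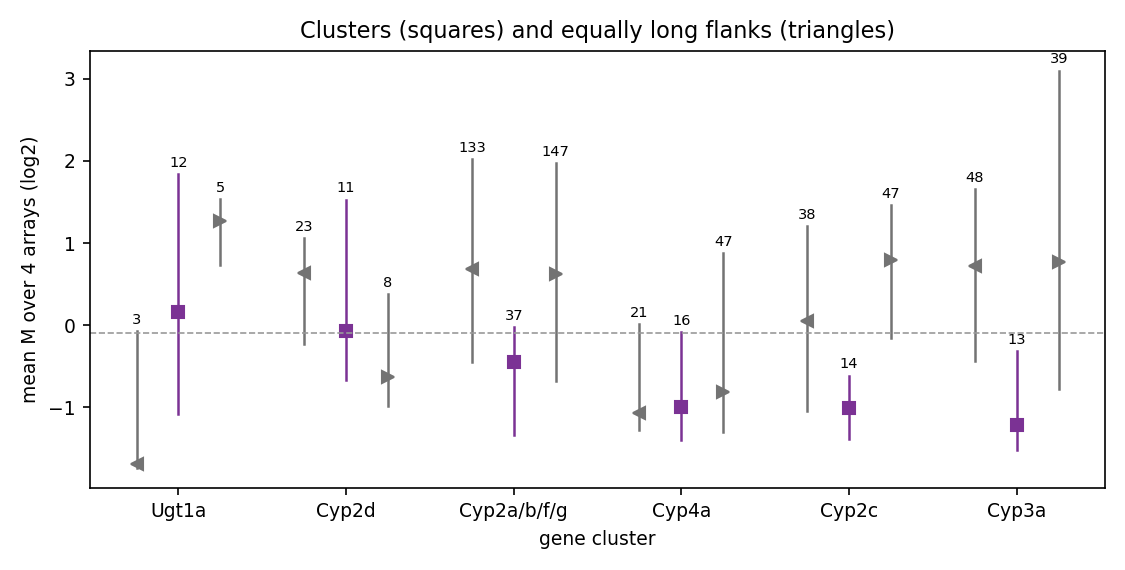
Median (symbol) and interquartile range (line) of the mean M over 4 arrays (log2 scale) for the regions of each cluster (purple squares) and of equally long flanks before and after it (grey triangles), with the number of regions above each line and the median of all regions dashed. Cyp2a/b/f/g, Cyp2c and Cyp3a lie below both flanks, and Cyp4a lies at the level of its flanks.

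Within the clusters, enrichment changed sharply over short distances at some places. Of 48 neighbouring pairs of regions at most 2000 bp apart, 18 differed by more than 1 in mean M. The 4 arrays gave the step the same sign in 31 of the 48 pairs, which were 13 of the 30 with the smaller steps and all 18 with the larger, where the choice by the mean of these arrays nearly fixes the sign. The steepest steps were in Ugt1a, whose 6 enriched regions had a mean M from 1.03 to 2.41 and whose other 6 from -1.86 to -0.70, with none between. The region chr1:90101228-90102976 was the most enriched of that cluster, with M of 2.63 and 2.19 on the control arrays and 2.43 and 2.38 on the food restricted arrays. It was followed 343 bp later by the least enriched region of the cluster, chr1:90103319-90104636, with M of -2.28 and -1.99 in control and -1.62 and -1.54 in food restricted DNA. A further 651 bp on, chr1:90105287-90106583 was again enriched, at 2.01 and 1.98 in control and 2.10 and 1.93 in food restricted DNA. The enriched and depleted regions did not overlap on any array, and the steps of -4.26 and 3.86 kept their sign in all 11 alternatives that gave a value, ranging from -5.04 to -1.94 and from 1.52 to 4.005. Changes of centring and the deposited value table are among these alternatives and could not reverse a step. The steps were also picked as the steepest on these same arrays. The depleted region was dim in the control pool, so its level there is bounded only from above. The bound is set by the lowest signal well above background and not by the M given. Another Ugt1a step, of 3.45, separated chr1:90059065-90060567 at -1.49 from its neighbour at 1.95.

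**Figure D3:**
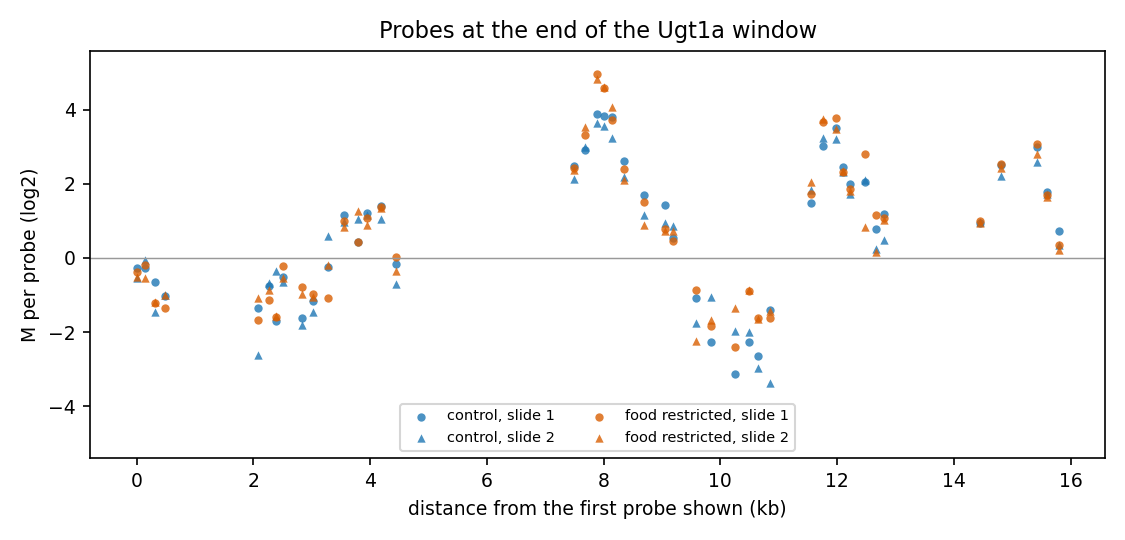
M of single probes (log2 scale) at the end of the Ugt1a window against distance from the first probe shown (kb), for the control (blue) and food restricted (orange) pools on slide 1 (circles) and slide 2 (triangles). Probes near 8 kb and 12 kb lie above 0 on all 4 arrays, and the 6 probes between 9.587 and 10.845 kb lie below 0 on all 4 arrays.

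The Cyp2d cluster held the most enriched region of all members, chr15:82205452-82207418, with M of 2.88 and 2.76 in control and 2.85 and 2.88 in food restricted DNA. Its second most enriched region, chr15:82185557-82186898, had 2.46 and 2.41 in control and 2.38 and 2.72 in food restricted DNA. It lay 461 bp from the least enriched Cyp2d region, chr15:82183804-82185096, at a mean of -1.18, a step of 3.67. In Cyp2a/b/f/g the highest region was chr7:27091922-27093157, at 2.53 and 2.39 in control and 2.66 and 2.67 in food restricted DNA, and the next was chr7:26601701-26602650 at a mean of 1.90. The lowest were chr7:27472665-27473411 at -1.86 and chr7:27538747-27539784 at -1.80, both dim in both pools.

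In Cyp4a, 2 regions stood above the rest, chr4:115319347-115321021 at a mean of 2.24 and chr4:115323303-115323674 at 2.04, while no other Cyp4a region had a mean above 1. In Cyp3a the single region above 1 was chr5:147035520-147036202, with 1.64 and 1.72 in control and 1.39 and 1.77 in food restricted DNA, a step of 3.09 from its neighbour. The next Cyp3a region by level, chr5:147041464-147042867, had a mean of 0.25, and a low one, chr5:146103910-146105193, had -1.74. No Cyp2c region reached 1. Its highest were chr19:40260879-40261976 at 0.80 and chr19:40164091-40164651 at -0.42, and its lowest chr19:40063802-40064374 at -1.79 and chr19:39135470-39136397 at -1.76. In the regions named here with a mean M above 1, the pools differed by less than 0.5 on either slide, although with loess the mean difference was 0.82 at chr15:82185557-82186898 and 0.78 at chr7:27091922-27093157.

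**Figure D4:**
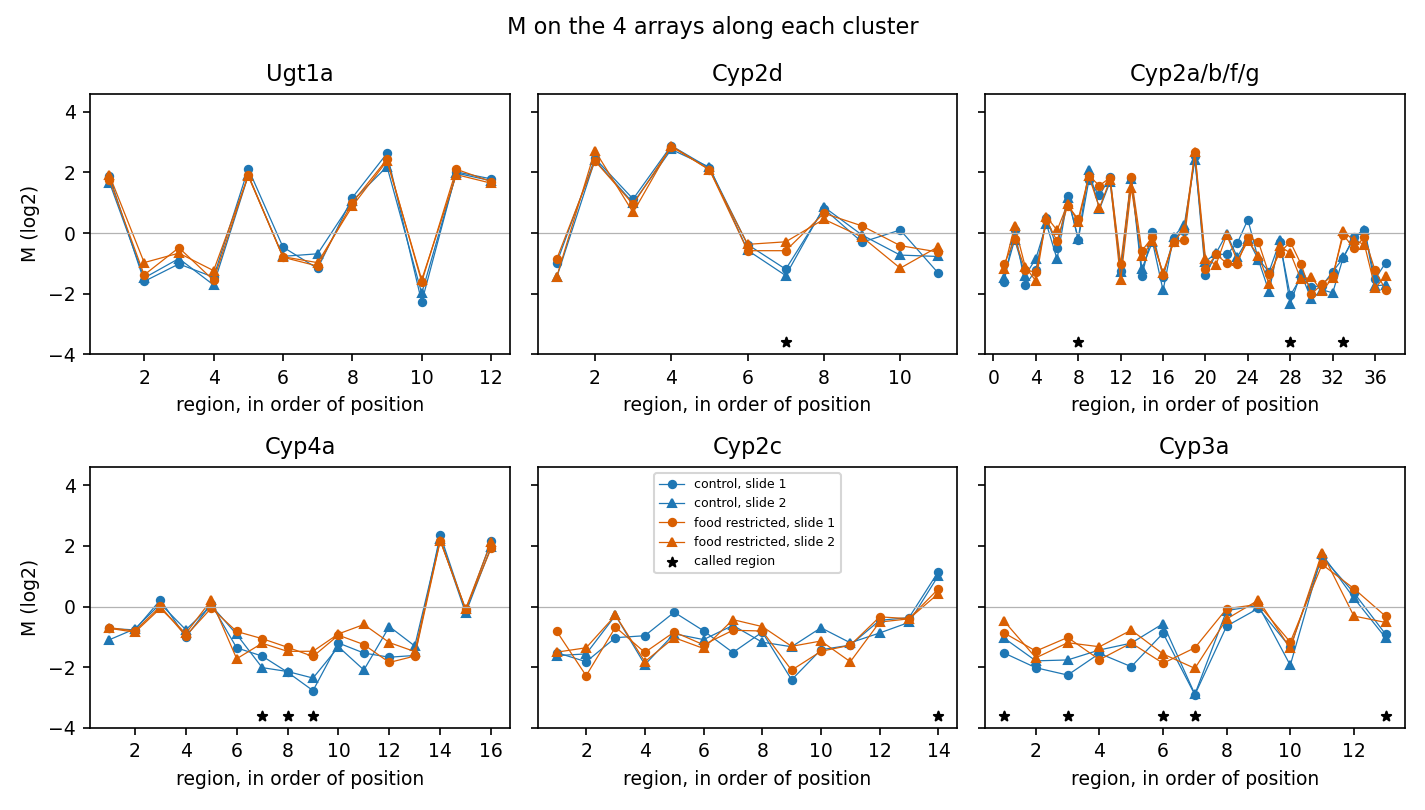
M (log2 scale) of each region in order of position along the 6 clusters, for the control (blue) and food restricted (orange) pools on slide 1 (circles) and slide 2 (triangles), with stars under the 13 regions called different between pools. The 4 lines run together at the high peaks and differ at many of the smaller steps, and the stars lie mainly under regions with M below 0.

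The pools were then compared within each slide as D, the M of the food restricted pool minus that of the control pool. The median D was near that of all regions, 0.04 on slide 1 and 0.09 on slide 2, in most clusters. It was -0.0003 and 0.04 in Cyp2a/b/f/g, -0.02 and 0.06 in Cyp2c, -0.05 and 0.02 in Cyp2d, 0.03 and 0.15 in Cyp4a, and -0.10 and 0.08 in Ugt1a. Cyp3a stood higher on slide 1, at 0.55, than on slide 2, at 0.18, and 8 of its 13 regions had D above 0 on both slides, as had 22163 of the 56653 regions of the array. The excess of Cyp3a over all regions averaged 0.30 over the slides and became -0.035 with normexp and -0.0013 with loess. D correlated between slides at r = 0.55 over the 103 regions and 0.34 over all regions, as a description only.

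A region was called different where D was at least 0.5 in size, a 1.41-fold difference, with the same sign on both slides. In the clusters 11 of 103 regions (10.7%) were called higher in the food restricted pool, where 4.55% of all regions were. Lower calls were 2 of 103 (1.94%) against 0.643% of all regions, and 1 region passed the size with opposite signs, against 0.717% of all. The higher calls were 4 in Cyp3a, 3 in Cyp2a/b/f/g, 3 in Cyp4a, 1 in Cyp2d and 0 in Cyp2c and Ugt1a. Low enrichment goes with more calls on the whole array: among regions with a mean M below -1, 9.17% were called higher, and in the clusters 6 of 40 such regions were. By the rule on dim regions, 5 of the 11 higher calls were not dim in either pool, 1 of them (chr5:146105275-146106555) narrowly. Another 3 were dim in the control pool and 3 in both.

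The calls depended on how the signals were processed. With the precipitated channel alone, 6 cluster regions were higher, 5 of them among the 11, against 3.33% of all regions. After a running median of D over regions ordered by mean M was subtracted, 4 were higher, all among the 11, against 1.1% of all. With the normexp background, 0 cluster regions were called in either direction, against 2.72% of all regions called higher. Over the whole array, the share of probes well above background in the precipitated channel was 72.2% and 72.0% in the control pool and 79.9% and 80.6% in the food restricted pool. Its part in the calls was not tested.

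**Figure D5:**
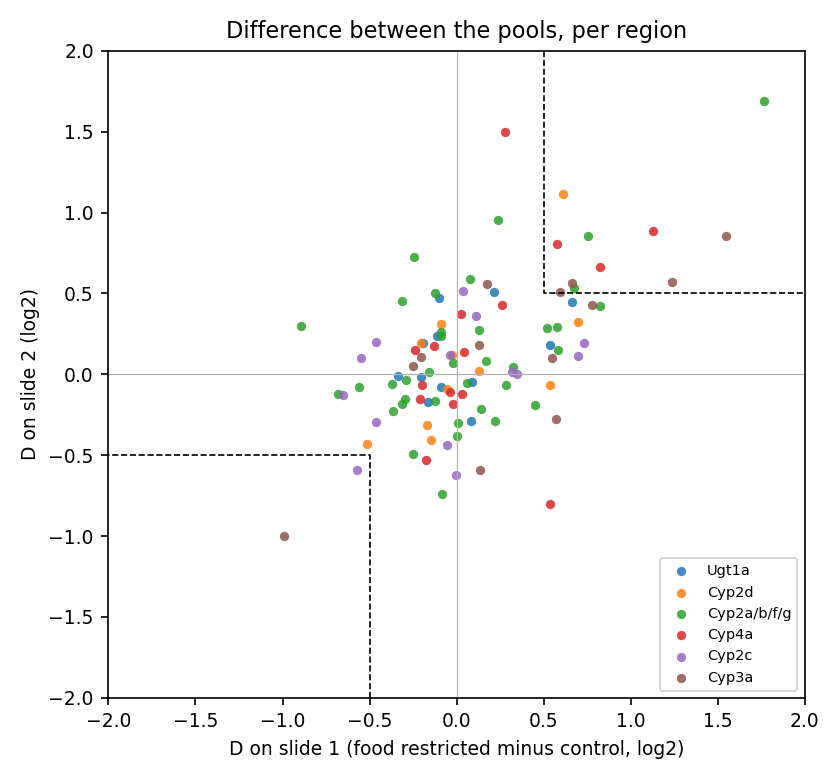
D on slide 2 against D on slide 1 (food restricted minus control, log2 scale) for the 103 cluster regions, coloured by cluster; the dashed corners bound the calls at 0.5 with the same sign on both slides. The 11 regions in the upper corner and 2 at the lower corner are those called, and the Cyp2a/b/f/g region at 1.77 and 1.69 lies farthest out.

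In the processing used here the largest difference was in Cyp2a/b/f/g, at chr7:27335718-27336139, a region of 3 probes. Its M was -2.06 and -2.34 on the control arrays and -0.29 and -0.65 on the food restricted arrays, so that both food restricted values were above both control values and D was 1.77 and 1.69. Of the 3 probes, 1 was well above background on each control array and 2 and 1 on the food restricted arrays. With dim control signals raised to the lowest signal well above background, the food restricted pool was not higher on average. No fold is therefore given. The call was kept in 9 of the 10 alternatives that could be computed and was lost with normexp, where D was 0.09. With dim precipitated probes left out, this region could not be measured. It was not the largest of the named regions with normexp, loess, means over probes or the precipitated channel alone. With means over probes its D was 0.88 against 0.93 in the Cyp2d region chr15:82211893-82212757. The region chr7:27591295-27592113, of 5 probes, had M of -0.82 and -0.80 in control and -0.07 and 0.05 in food restricted DNA, a 1.75-fold difference that was kept in 6 of 11 alternatives. Its precipitated channel differed by 0.18 and 0.01 between pools on the 2 slides, less than D, and its reference channel by 0.12 and 0.23. In the alternatives that lost the call, D was 0.22 without dim precipitated probes and 0.29 with means over probes. It was 0.17 with loess, 0.09 in the precipitated channel alone and -0.03 with normexp. The region chr7:26600503-26601579, of 7 probes, had M of -0.22 and -0.18 in control and 0.45 and 0.35 in food restricted DNA, a 1.52-fold difference kept in 4 of 11 alternatives. Its precipitated channel differed by 0.05 and 0.21 between pools on the 2 slides, and its reference channel by 0.28 and 0.13. Its D was 0.35 without dim precipitated probes and 0.13 in the precipitated channel alone.

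In Cyp2d, chr15:82211893-82212757 was called higher. Its M was -1.19 and -1.40 on the control arrays and -0.58 and -0.29 on the food restricted arrays, which did not overlap, a 1.82-fold difference. On each array, 4 or 5 of its 5 probes were well above background in the precipitated channel. The precipitated channel differed by 0.60 and 0.61, and the call was kept in 6 of 11 alternatives.

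In Cyp3a 4 regions were called higher and 1 lower of 13, with 2 of these dim in both pools. With quantile normalization or the running median subtracted, 0 were higher and 1 lower. The higher region chr5:146105275-146106555, of 6 probes, had M of -2.26 and -1.76 in control and -1.02 and -1.19 in food restricted DNA. Of its 6 probes, 1 and 3 were above background on the control arrays and 4 and 3 on the food restricted arrays, and it could not be measured once dim precipitated probes were left out, so no fold is given. It lay near another higher call, chr5:146102779-146103398, with M of -1.53 and -1.04 in control and -0.87 and -0.48 in food restricted DNA, where 1 of 3 probes was above background on each array. The region with the lowest mean M of all members, chr5:146822204-146822676, had -2.91 and -2.89 in control and -1.36 and -2.04 in food restricted DNA. It was dim in the control pool, with 1 of 3 probes above background on either array. With dim control signals raised to the lowest signal well above background, the food restricted pool was not higher on average, so no fold is given. The fourth, chr5:147043371-147044255, had -0.92 and -1.03 in control and -0.32 and -0.53 in food restricted DNA, a 1.47-fold difference in the ratio. In its precipitated channel the pools differed the other way, by -0.32 and -0.03, and its D was -0.05 with normexp and -0.12 with loess. These 4 calls were kept in 4 of 10, 2 of 9, 6 of 10 and 2 of 11 alternatives, in that order. Those with fewer than 11 could not be measured with dim precipitated probes left out.

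The lower Cyp3a region, chr5:146693708-146694298, had M of -0.88 and -0.57 in control and -1.87 and -1.57 in food restricted DNA. In the precipitated channel it had 0 of 3 probes above background on any array. In the reference channel 1 of 3 was above background on either array of slide 1 and 3 of 3 on slide 2. The reference channel had the higher signal in food restricted DNA, by 0.73 and 0.85. This call was kept in 6 of 9 alternatives and lost with normexp, loess and the precipitated channel alone. The Cyp2c region called lower, chr19:40260879-40261976, was the most enriched region of that cluster. Its M was 1.15 and 1.02 in control and 0.58 and 0.43 in food restricted DNA, a 1.495-fold difference. In the precipitated channel 4 or 5 of its 5 probes were above background on each array, and in the reference channel 3 or 4 were. Without probes dim in the reference its D was -0.076. Its precipitated channel differed by 0.26 on slide 1 and -0.36 on slide 2, its reference channel by 0.53 and 0.22, and the call was kept in 1 of 11 alternatives.

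The 3 higher regions of Cyp4a lay next to each other in order of position, from chr4:115124296 to chr4:115170464, and all had low M. The first, chr4:115124296-115125687, of 9 probes, had -1.63 and -2.01 in control and -1.06 and -1.21 in food restricted DNA. None of its probes was above background on the control arrays, where 0 of 9 were, and 6 and 7 were on the food restricted arrays, so the difference is given as at least 1.01-fold. The second, chr4:115167724-115169205, of 10 probes, had -2.17 and -2.14 in control and -1.34 and -1.48 in food restricted DNA. The third, chr4:115169424-115170464, of 5 probes, had -2.77 and -2.36 in control and -1.65 and -1.48 in food restricted DNA. Both of the latter were dim in both pools, and the calls were kept in 3, 4 and 8 of 10 alternatives. None of the 3 could be measured with dim precipitated probes left out. The region just before them, chr4:115122746-115124189, was the one with opposite signs, with D of 0.54 on slide 1 and -0.80 on slide 2. The region 356 bp after them, chr4:115170820-115172190, was not called, with D of 0.26 on slide 1 and 0.43 on slide 2.

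In Ugt1a no region was called in either direction. The nearest was the depleted region chr1:90103319-90104636 described above, with D of 0.66 on slide 1 and 0.45 on slide 2, and the highly enriched regions on its sides had D between -0.19 and 0.19. The control arrays held the first and the food restricted arrays the second of the same positions on both slides, so array position and pool cannot be told apart. The series' value table gives the food restricted array of slide 1 and the control array of slide 2 each other's values, equal within 0.001 at 100% of probes. The scanner files were followed here because their red to green ratios have the sign that the titles' dyes call for, and the direction of D rests on that assignment.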

How the data were processed

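Immunoprecipitated and total DNA of 2 pools were hybridised on 4 arrays. The submitters' processing notes name Agilent Feature Extraction, version 10.5.1.1. The deposited processed intensity of each channel is background-subtracted and dye-normalized by a linear factor, with a surrogate in place of dim signals, per the file headers. The deposited value table holds log2 of red over green. The deposited flags mark outliers, saturation and signal well above background.

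M was computed per probe and centred on the array median, with no loess or quantile step. Outlier flags removed 65 of 415814 probes, none of them members. Probes whose starts lay at most 500 bp apart formed blocks, divided into equal lengths up to 2000 bp. The steps were tested on simulated data with planted differences and the same noise at every probe. That simulation did not model dim signals, so it cannot speak to calls in dim regions. Named regions were the 2 highest and 2 lowest by mean M in each cluster and every called region. The members, lists and rules were chosen with earlier results of these data known. Alternatives covered background, centring, normalization, probe filters, region length and summary, channel and array, using Python 3.11.15, R 4.3.3 and limma 3.58.1. Array number limits the precision. For fragmentation and antibody, the protocol was not given in the sources used here.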

Additional observations from a re-analysis of the deposited data

How the results depend on the processing

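Values here are counts of called regions (11 higher and 2 lower as reported) and cluster medians less the median of all regions. As reported, the D of Cyp2a/b/f/g, Cyp2c, Cyp2d, Cyp3a, Cyp4a and Ugt1a was -0.041, -0.044, -0.080, 0.30, 0.025 and -0.068, and the M was -0.52, -0.89, 0.12, -0.96, -0.84 and 0.31. The cause of the changes below was not tested, other than fewer probes or arrays where a setting leaves some out. With normexp and its offset of 50, 0 regions were higher and 0 lower, where 2.72% of all regions were higher. D was then -0.050 in Cyp2a/b/f/g, -0.070 in Cyp2c, -0.034 in Cyp2d, -0.035 in Cyp3a and 0.046 in Ugt1a, and M was -0.22 in Cyp2a/b/f/g, 0.042 in Cyp2c, -0.21 in Cyp3a, -0.32 in Cyp4a and 0.079 in Ugt1a. With loess, 6 were higher (8.52% of all regions) and 0 lower. D was -0.076 in Cyp2a/b/f/g, -0.16 in Cyp2c, 0.0095 in Cyp2d, -0.0013 in Cyp3a and 0.15 in Ugt1a, and M was -0.16 in Cyp2c, -0.091 in Cyp2d, -0.49 in Cyp3a, -0.43 in Cyp4a and -0.094 in Ugt1a. Quantile normalization left 4 higher (1.18% of all), with D of -0.10, -0.19 and -0.057 in Cyp2a/b/f/g, Cyp2c and Cyp2d, and the running median also left 4, with D of -0.097, -0.19 and -0.067. Centring on the densest value left 5 higher (1.67% of all), and no centring 1 lower. The median D of all regions, 0.06 as reported, was -0.11 and 0.15 under these centrings, and the array-wide calls were 2580 higher and 364 lower as reported, 947 and 1214 on the densest value, 4071 and 227 with no centring, 668 and 581 with quantile, and 4826 and 237 with loess. With saturated probes and those dim in the reference left out, 0 were lower, D was 0.078 in Cyp2c and -0.065 in Cyp2d, and M was -1.02 in Cyp2c, 0.42 in Cyp2d and -1.10 in Cyp4a. Without dim immunoprecipitated probes, 57 cluster regions remained, 2 were higher (3.90% of all) and 0 lower, D was 0.061 in Cyp2a/b/f/g and -0.0031 in Cyp2d, and M was -0.32 in Cyp2d, -0.68 in Cyp3a, -0.61 in Cyp4a and 1.03 in Ugt1a; Cyp2c kept 2 regions and gave no value. With means over probes, 7 were higher (3.11% of all) and 1 lower (107 of 56653 over the array). D was -0.055 in Cyp2a/b/f/g, -0.067 in Cyp2d and 0.023 in Ugt1a, and M was 0.064 in Ugt1a. Regions up to 1000 bp gave 4 lower of 148, where 712 of 89920 regions of the array were. They gave D of -0.074 in Cyp2a/b/f/g, -0.017 in Cyp2c and 0.040 in Ugt1a, and M of -1.01 in Cyp2c. The immunoprecipitated channel alone gave 6 higher (3.33% of all), D of 0.059 in Cyp2a/b/f/g, 0.081 in Cyp2c, -0.21 in Cyp2d and 0.29 in Cyp4a, and levels of -2.36 in Cyp2c, -1.58 in Cyp3a, -0.99 in Cyp4a and 0.65 in Ugt1a. A call at 0.7 gave 4 higher (1.46% of all) and 1 lower (128 of 56653 over the array). Single slides gave 19 to 25 higher, where 13.8% and 12.4% of all regions were. They gave 7 to 8 lower, where 2124 and 2542 of the 56653 regions were. Reported D pairs the arrays of a slide as a replicate block. With no replicate block, D taken across slides gave 1 lower (249 of 56653 over the array) and D of -0.050 in Cyp2a/b/f/g, -0.14 in Cyp2c and -0.030 in Cyp2d. Among called regions, the D of the Cyp3a region starting at 146102779 turned to -0.088 with normexp and -0.052 with means over probes, that at 147043371 to -0.046 with normexp, -0.12 with loess and -0.17 in the immunoprecipitated channel, and that of the Cyp2a/b/f/g region at 27591295 to -0.032 with normexp. The deposited value table, with each column given to the array it equals, gave 11 higher and 2 lower. These counts follow from that assignment and do not check which pool a column belongs to. Dim signal limits the low regions. In the control pool 35 of 103 were dim, and the M given there is neither a measured level nor a firm upper limit. In the 20 dim in both pools D bounds nothing.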
